A study of Homo sapiens with 18 samples.

Results

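The genes described here are 9 factors and structural genes of the epithelial-mesenchymal transition (EMT): the transcription factors SNAI1, SNAI2, TWIST1, ZEB1 and ZEB2, and the mesenchymal genes VIM, CDH2, FN1 and S100A4. They were taken by their gene symbol from both deposited expression tables, where all 9 are among the 26485 genes listed. No cutoff on a measured value selected them, but earlier results of these data were known when they were chosen. RNA of PANC-1, an established line of human pancreatic ductal carcinoma cells, was sequenced in 18 libraries. Each of 6 groups had 3 libraries. Cells of the siRNA arm were collected 72 h after transfection with a control siRNA or with 1 of a pair of siRNAs to PKR, called PKR siRNA 1 and PKR siRNA 2, and cells of the C16 arm after 72 h in the vehicle DMSO, in 400 nM C16 or in 800 nM C16. PKR is the double-stranded RNA-activated protein kinase encoded by EIF2AK2, both PKR siRNAs target its transcript, and C16 is an inhibitor of its kinase activity. All groups are 1 cell line, and the sources used here do not state whether the libraries of a group came from separate cultures, so that errors and p-values describe the spread between libraries. The labels place the siRNA arm in Run1 and the C16 arm in Run2, without saying what a run was. The arms were also normalized in separate tables. An effect of the run therefore cannot be told apart from siRNA against C16, and every comparison stayed within a table.

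EMT is the process in which epithelial cells give up their cell junctions and take on the shape and motility of mesenchymal cells. SNAI1, SNAI2, TWIST1, ZEB1 and ZEB2 are DNA-binding factors that recognise E-box motifs and are known as repressors of CDH1, the gene of E-cadherin, while the miR-200 microRNAs act against ZEB1 and ZEB2. N-cadherin (CDH2), the intermediate filament vimentin (VIM), the matrix protein fibronectin (FN1) and the calcium-binding protein S100A4 are standard mesenchymal readouts, and PANC-1 is known for carrying keratins and vimentin together.

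Of the 9 genes, 5 had enough reads for a test in each table (SNAI1, ZEB1, VIM, CDH2 and S100A4), and their changes did not run in 1 direction. Both PKR siRNAs went with more ZEB1 RNA (1.51-fold and 1.74-fold). CDH2 and S100A4 rose with PKR siRNA 2 against control siRNA, and PKR siRNA 1 gave neither of those calls. S100A4 fell and SNAI1 rose at both doses of C16 and VIM fell at 800 nM, while ZEB1 and CDH2 did not pass the test at either dose. In that arm SNAI1 had enough reads for a test only through the C16 libraries. CDH1 was also called in all 4 comparisons with control siRNA or DMSO, upwards with PKR siRNA 2 and downwards in the others. Only the rise kept its call under every other setting in which CDH1 was tested. Each fall lost its call under some of them, DESeq2 included.

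Depth, as the sum of reads assigned to genes, was 1512940 to 1873906 per library in the siRNA arm and 894145 to 1474308 in the C16 arm, so low genes are less precise in the latter. DMSO library 3, the deepest of the C16 arm, stood apart from the other DMSO libraries (a chi-square of their reads, divided by its degrees of freedom, of 1.63 and 1.37, against 1.07 to 1.16 for the other pairs of that arm). Without it the same numbers of the 9 genes were called, 2 at 400 nM and 3 at 800 nM C16, with log2 changes of 1.15 and 0.99 for SNAI1, -0.77 and -0.99 for S100A4 and -0.36 and -0.61 for VIM. In the siRNA arm the chi-square per degree of freedom was 1.03 to 1.33. PKR siRNA 1 library 2, the deepest of that arm, gave 1.23 and 1.33 against the others of its group. Control siRNA libraries 2 and 3 gave 1.23. Calls lost without single libraries are given below. The target transcript EIF2AK2 had a mean of 97.4 normalized counts in the controls, of 11.1 after PKR siRNA 1 and of 8.65 after PKR siRNA 2 (both called down by limma), and was not called at either dose of C16. The labels call the cells epithelial. Of the 6 epithelial markers checked, KRT8, KRT18 and KRT19 were abundant in every library, and the others were not. KRT7 was low in both tables, with a mean of 3.78 normalized counts with DMSO and of 18.2 in the siRNA controls. CDH1 was low too, at 9.07 to 61.7 normalized counts in the siRNA table and 13.4 to 35.8 in the C16 table. EPCAM averaged 102.6 in the siRNA controls, but 12.3 after PKR siRNA 1, 10.7 after PKR siRNA 2 and 17.8 with DMSO. Markers of other cell types were scarce: PTPRC and CD3E of immune cells and DCN of fibroblasts had no read in any library, and no endothelial marker exceeded 1 read. The exceptions were CD68, COL1A1 and, at lower levels, COL3A1 and PDGFRB. In these bulk samples, fewer cells expressing a gene and less of its RNA per cell cannot be told apart.

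Levels of different genes were compared as normalized counts per kilobase of exon. In the siRNA table the order was VIM (mean of 9 libraries 2328), S100A4 (315), CDH2 (21.4), ZEB1 (14.4), SNAI1 (9.14), FN1 (0.693), SNAI2 (0.651) and ZEB2 (0.0639), with TWIST1 at 0, and FN1 and SNAI2 cannot be ordered at their few reads. VIM stood at rank 15 of the 26485 genes listed and S100A4 at rank 291. In the C16 table VIM (1162, rank 32), S100A4 (229, rank 251) and CDH2 (16.1) again led. SNAI1 (7.62) and ZEB1 (7.56) followed and were indistinguishable in view of their spread, and so were FN1 (0.282), ZEB2 (0.256) and SNAI2 (0.106), which rest on a few reads per library. CDH1 stood below SNAI1 in both, at 5.99 and 4.75 normalized counts per kilobase. All these means span treated and control libraries. With DMSO alone, CDH1 (mean of 30.9 normalized counts on 4815 bases of exon) stood above SNAI1 (7.11 on 1706 bases). ZEB1 (46.9 on 6389 bases) stood above SNAI1 there too.

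SNAI2, TWIST1, ZEB2 and FN1 stayed below the minimum mean of 10 normalized counts that was set for testing. TWIST1, whose product is a basic helix-loop-helix factor, had 0 reads in all 18 libraries, which allows up to 3 reads per library by counting error alone. SNAI2, the zinc-finger factor known as Slug, had no read in the controls, 0, 7 and 2 reads in the 3 libraries of PKR siRNA 1, and 1, 2 and 1 reads in those of PKR siRNA 2. In the C16 table SNAI2 had no read with DMSO and 1 read in a single library of each dose. No fold is given for SNAI2, since both sides lie near or under the limit of 3 reads, and the siRNA 1 total comes mostly from 1 library.

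ZEB2, the paralog of ZEB1, had 0, 0 and 1 reads in the controls, 0, 3 and 1 after PKR siRNA 1, and 1, 1 and 0 after PKR siRNA 2. It had 5, 2 and 3 reads with DMSO, 3, 1 and 3 at 400 nM C16, and 3, 2 and 5 at 800 nM, with the groups overlapping throughout. FN1 had 4 to 10 reads in each control siRNA library, 5 to 7 after PKR siRNA 1 and 5 to 9 after PKR siRNA 2, so that all 3 groups overlapped. In the C16 table FN1 had 0, 3 and 1 reads with DMSO, 3, 2 and 3 at 400 nM, and 3, 3 and 4 at 800 nM. After normalization the 3 libraries of 800 nM lay above the 3 of DMSO (two-sided exact permutation p = 0.1, the smallest that 3 against 3 libraries allow), at levels that are too low to measure a fold.

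**Figure D1:**
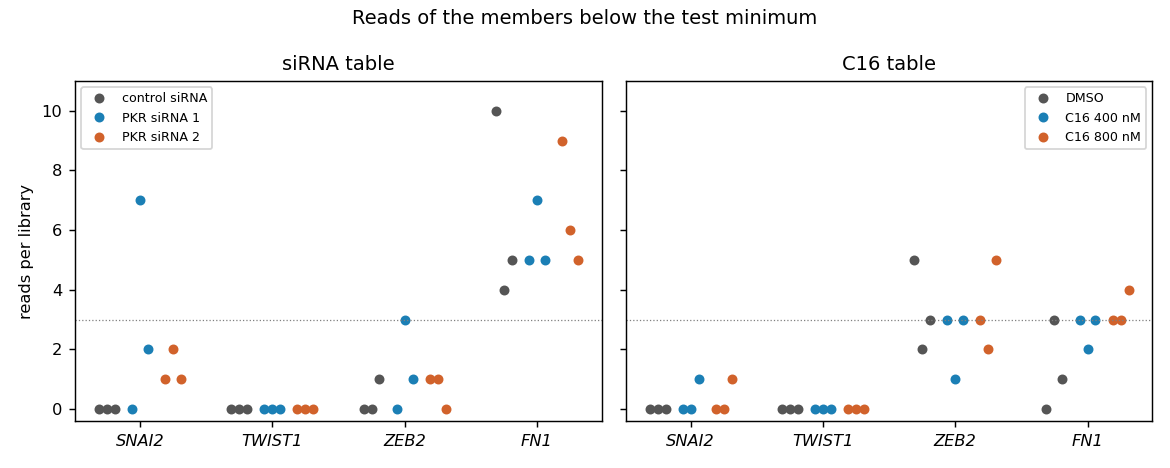
Reads per library (vertical axis) of SNAI2, TWIST1, ZEB2 and FN1 in the siRNA table (left) and the C16 table (right), 1 point per library and colours for the groups. The dotted line marks 3 reads, the level up to which a library with 0 reads may still hold the transcript, by counting error alone. TWIST1 sits at 0 in all 18 libraries and no library has more than 10 reads of any of the 4 genes.

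Of the tested transcription factors ZEB1 and SNAI1, ZEB1 rose with both PKR siRNAs against control siRNA. Its product is a zinc-finger homeobox protein known as a direct repressor of CDH1 and of the miR-200 genes. The files place ZEB1 at chr10:31319172-31529814 on the plus strand of hg38, with 6389 bases of exon. The window around its RefSeq start (GRCh38.p14, chr10:31318167-31318466, plus strand) lies wholly upstream of these exons. That start therefore differs from the first base of the counted gene. The window is shown because it holds, near the RefSeq start, 1 of the E-boxes that this family of factors binds. The capitals mark that motif, which begins 57 bases before the start:
ZEB1: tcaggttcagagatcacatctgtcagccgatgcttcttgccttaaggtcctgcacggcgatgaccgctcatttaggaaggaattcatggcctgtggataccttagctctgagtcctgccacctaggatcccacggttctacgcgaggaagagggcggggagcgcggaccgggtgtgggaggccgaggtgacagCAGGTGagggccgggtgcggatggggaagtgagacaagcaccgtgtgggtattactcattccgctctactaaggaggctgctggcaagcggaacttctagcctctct

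In the control siRNA libraries ZEB1 had 69.8, 60.2 and 64.5 normalized counts. It had 92.2, 101.6 and 101.3 after PKR siRNA 1, and 113, 119 and 107 after PKR siRNA 2. No library of either PKR siRNA overlapped the controls, and the 3 libraries of PKR siRNA 2 also lay above those of PKR siRNA 1.

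ZEB1 rose by 0.60 on the log2 scale with PKR siRNA 1 (95% confidence interval 0.35 to 0.84, adjusted p = 4.86e-05) and by 0.80 with PKR siRNA 2 (0.55 to 1.04, adjusted p = 1.06e-07). Here and below, adjusted p-values come from limma, fitted to log2(normalized count + 1) of all tested genes with Benjamini-Hochberg adjustment. A gene was called at an adjusted p under 0.05 with a change over 1.5-fold, the thresholds of the study. The first of these changes lies just past 1.5-fold: it fell short of that size, at log2 changes of 0.54 to 0.57, without control siRNA library 2 or without PKR siRNA 1 library 2 or library 3, and each of those fits kept an adjusted p under 0.001. The direct difference between the siRNAs was 0.20 (interval -0.05 to 0.45, adjusted p = 0.164) and did not pass the test.

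With C16, ZEB1 did not move beyond the spread between libraries. It had 39.8, 51.4 and 49.5 normalized counts with DMSO, 36.2, 51.9 and 52.1 at 400 nM and 53.5, 45.1 and 55.3 at 800 nM. The groups overlapped at both doses. The log2 differences from DMSO were -0.02 (interval -0.37 to 0.33, adjusted p = 0.957) at 400 nM and 0.13 (-0.22 to 0.48, adjusted p = 0.57) at 800 nM, and neither upper bound reaches the 1.5-fold threshold.

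SNAI1, the zinc-finger factor known as Snail, had few reads, 5 to 26 per library. The files place it at chr20:49982976-49988883 on the plus strand of hg38. With control siRNA it had 10.3, 20.4 and 14.2 normalized counts, 11.1, 8.16 and 13.5 after PKR siRNA 1, and 17.9, 20.4 and 24.4 after PKR siRNA 2. Both PKR siRNA groups overlapped the controls, but not each other.

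Against control siRNA, SNAI1 differed by -0.40 on the log2 scale with PKR siRNA 1 (interval -0.996 to 0.20, adjusted p = 0.293) and by 0.50 with PKR siRNA 2 (-0.10 to 1.09, adjusted p = 0.173), neither of which passed the test. Between the siRNAs, SNAI1 was 1.86-fold higher with PKR siRNA 2 (log2 0.89 ± 0.30 SE, adjusted p = 0.00884 by limma). That call was lost without PKR siRNA 1 library 2 (adjusted p = 0.058) or without PKR siRNA 2 library 3 (0.0509).

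SNAI1 rose at both doses of C16. It had 9.72, 4.76 and 6.85 normalized counts with DMSO, 22.3, 11.5 and 17 at 400 nM, and 17.2, 17.1 and 10.5 at 800 nM. All 6 C16 libraries lay above the 3 DMSO libraries, while the doses overlapped each other. The log2 change was 1.15 at 400 nM (interval 0.48 to 1.82, adjusted p = 0.00723) and 0.99 at 800 nM (0.32 to 1.66, adjusted p = 0.0135), or 2.22-fold and 1.98-fold on the scale of normalized count + 1.

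The SNAI1 calls rest on 5 to 10 reads in each DMSO library and did not hold under every setting. Its mean with DMSO, 7.11, lay under the minimum of 10 for testing. SNAI1 passed that minimum only through the groups of 400 nM and 800 nM C16 (means of 17.0 and 14.9), so the filter favoured a rise. DESeq2 on the recovered reads gave adjusted p = 0.0511 at 400 nM and 0.0735 at 800 nM. Leaving out DMSO library 2 gave 0.0599 and 0.0871, leaving out library 1 of 400 nM gave 0.0654, and leaving out library 1 or library 2 of 800 nM gave 0.0612 and 0.0587.

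VIM was the most abundant of the 9 genes, and its changes were small but well resolved. The files place it at chr10:17228259-17237593 on the plus strand of hg38. About 30% of its exon bases overlap the antisense gene VIM-AS1, which had at most 8 reads in any library against at least 1728 of VIM. With control siRNA VIM had 4737, 4633 and 4838 normalized counts, 4923, 4954 and 4944 after PKR siRNA 1, and 5228, 5118 and 5381 after PKR siRNA 2. The 3 groups did not overlap.

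Neither siRNA brought VIM past 1.5-fold. The log2 difference from control siRNA was 0.06 with PKR siRNA 1 (interval -0.01 to 0.13, adjusted p = 0.163) and 0.15 with PKR siRNA 2 (0.07 to 0.22, adjusted p = 0.000459), the latter a 1.11-fold difference.

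With C16, VIM was lower. It had 3081, 3035 and 3055 normalized counts with DMSO, 2313, 2482 and 2379 at 400 nM, and 1887, 2106 and 2006 at 800 nM. Every library of 800 nM lay below every library of 400 nM, and those lay below DMSO. The log2 change was -0.35 at 400 nM (interval -0.46 to -0.25, adjusted p = 2.19e-07), which is 1.28-fold lower and under the size threshold. At 800 nM VIM was called, 1.53-fold lower (log2 -0.61, interval -0.72 to -0.51, adjusted p = 3.94e-15). The call at 800 nM lies at the size threshold and was lost when counts were scaled to library totals (-0.58) or without 800 nM library 1 (-0.57). The step from 400 to 800 nM was -0.26 (interval -0.36 to -0.15, adjusted p = 0.000286), again short of 1.5-fold.

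CDH2, the neural cadherin that replaces E-cadherin in the classic cadherin switch, was called with PKR siRNA 2 and not with PKR siRNA 1. The files place it at chr18:27950963-28177446 on the minus strand of hg38. With control siRNA it had 80.1, 84.9 and 79.6 normalized counts, 83.3, 71.7 and 84.9 after PKR siRNA 1, and 124, 117 and 133 after PKR siRNA 2. The libraries of PKR siRNA 2 lay above all others, and those of PKR siRNA 1 overlapped the controls.

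CDH2 rose 1.52-fold with PKR siRNA 2 against control siRNA (log2 0.61, interval 0.36 to 0.85, adjusted p = 2.38e-05), a call that was lost on size without PKR siRNA 2 library 3 (0.56). The difference with PKR siRNA 1 was -0.03 (interval -0.28 to 0.21, adjusted p = 0.862). The direct test of the siRNAs gave a 1.56-fold higher level with PKR siRNA 2 (log2 0.64, adjusted p = 6.81e-06), with the size falling to 0.56 without PKR siRNA 1 library 2.

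CDH2 was not called with C16. It had 57.3, 69.5 and 65.5 normalized counts with DMSO, 77.6, 72.7 and 74.5 at 400 nM, and 97.8, 62.2 and 66.8 at 800 nM. The 400 nM libraries lay above DMSO, but at 800 nM only library 1 did so and the other two lay among the DMSO values. The log2 differences from DMSO were 0.23 (interval -0.07 to 0.52, adjusted p = 0.275) and 0.21 (-0.09 to 0.51, adjusted p = 0.255), and without 800 nM library 1 the second was 0.01.

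S100A4 had the largest fold change of the 5 tested genes in the siRNA table. It encodes a small calcium-binding protein of motile cells, also known as fibroblast-specific protein, and has 564 bases of exon at chr1:153543619-153545806 on the minus strand of hg38. The window around its RefSeq start (GRCh38.p14, chr1:153545757-153546056, minus strand) is shown because it too holds 1 E-box. The capitals mark the motif, here in its reverse-complement letters, which begins 164 bases before the start:
S100A4: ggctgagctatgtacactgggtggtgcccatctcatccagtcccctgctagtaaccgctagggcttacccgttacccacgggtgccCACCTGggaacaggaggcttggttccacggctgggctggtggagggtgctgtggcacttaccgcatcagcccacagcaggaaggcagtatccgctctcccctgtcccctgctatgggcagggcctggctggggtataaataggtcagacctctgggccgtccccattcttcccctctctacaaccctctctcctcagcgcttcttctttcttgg

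The control siRNA libraries held 113, 133 and 118 normalized counts of S100A4. Those of PKR siRNA 1 held 122, 101 and 86.8, and those of PKR siRNA 2 held 296, 326 and 302. PKR siRNA 1 overlapped the controls, while all 3 libraries of PKR siRNA 2 lay far above both other groups.

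S100A4 rose 2.53-fold with PKR siRNA 2 (log2 1.34 ± 0.10 SE, adjusted p = 2.98e-19 by limma). With PKR siRNA 1 the difference was -0.24 (interval -0.45 to -0.04, adjusted p = 0.0464), 1.18-fold lower and short of the size threshold. The siRNAs differed from each other by 1.58 on the log2 scale (interval 1.38 to 1.79, adjusted p = 3.02e-23).

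With C16, S100A4 fell. It had 200.2, 179 and 164 normalized counts with DMSO, 124, 87.6 and 123 at 400 nM, and 95.8, 97.5 and 91.6 at 800 nM. No C16 library reached the DMSO range, and the doses overlapped each other. The level was 1.63-fold lower at 400 nM (log2 -0.71, interval -0.94 to -0.47, adjusted p = 4.26e-06) and 1.89-fold lower at 800 nM (-0.92, -1.16 to -0.68, adjusted p = 3.21e-09). Without 400 nM library 2 the first change was -0.54 and under the size threshold. The difference between the doses, -0.22 (interval -0.45 to 0.02, adjusted p = 0.23), did not pass the test.

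**Figure D2:**
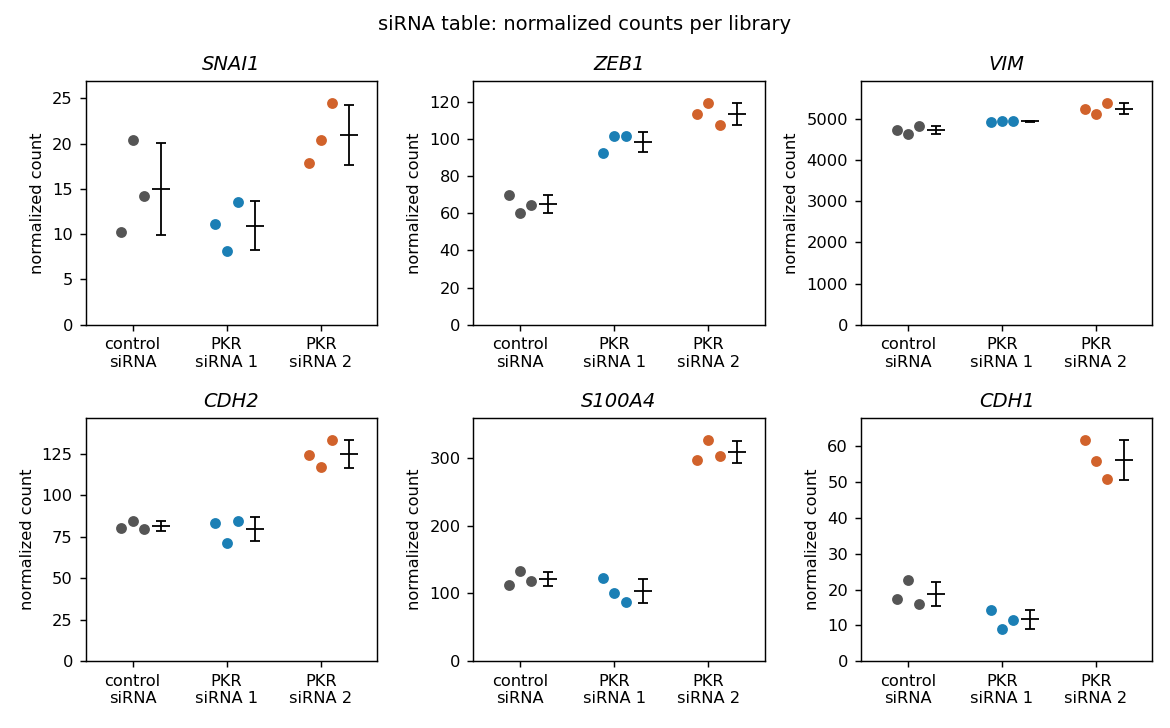
Normalized counts (vertical axes, starting at 0) of the 5 tested EMT genes and CDH1 in the 9 siRNA libraries. Points are libraries and the black marks beside them the mean ± SD of 3. ZEB1 is higher in all 6 PKR siRNA libraries than in the controls, and CDH2, S100A4 and CDH1 are highest in the 3 libraries of PKR siRNA 2.

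**Figure D3:**
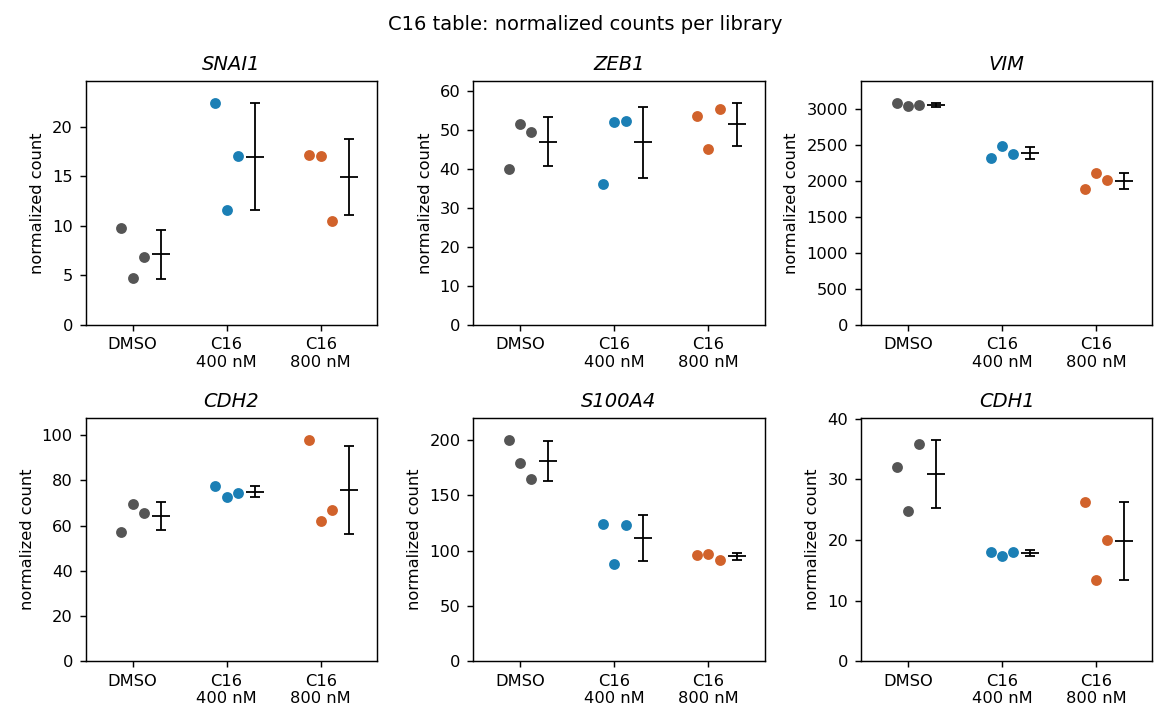
Normalized counts (vertical axes, starting at 0) of the same 6 genes in the 9 C16 libraries, drawn in the same way. VIM steps down from DMSO (3035 to 3081) to 400 nM (2313 to 2482) and 800 nM C16 (1887 to 2106), S100A4 is lower and SNAI1 higher at both doses, and ZEB1 overlaps between all groups.

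Set against all genes tested, the counts of called genes read as follows. For PKR siRNA 1, 1 of the 5 tested members was called up and 0 down, where 8.53% of 10593 genes were called up and 12.6% down. With PKR siRNA 2, 3 were called up and 0 down, beside 10.8% and 12.8% of all genes. In the direct comparison of the siRNAs, 3 were called higher with PKR siRNA 2 and 0 lower, beside 16.4% and 15.3%.

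At 400 nM C16, 1 of the 5 members was called up (SNAI1) and 1 down (S100A4), where 7.08% of 9963 genes were called up and 5.45% down. At 800 nM, 1 was called up and 2 down (VIM and S100A4), beside 11.6% and 14.1%. The 1 called up was SNAI1 at both doses, which passed the minimum for testing only through the C16 libraries. Between the doses 0 members were called, beside 1.13% of genes higher and 3.95% lower at 800 nM. Of these 5, only VIM had an unadjusted p under 0.05 there, and edgeR and DESeq2 also called 0. The comparisons within a table share libraries, so their counts are not independent.

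**Figure D4:**
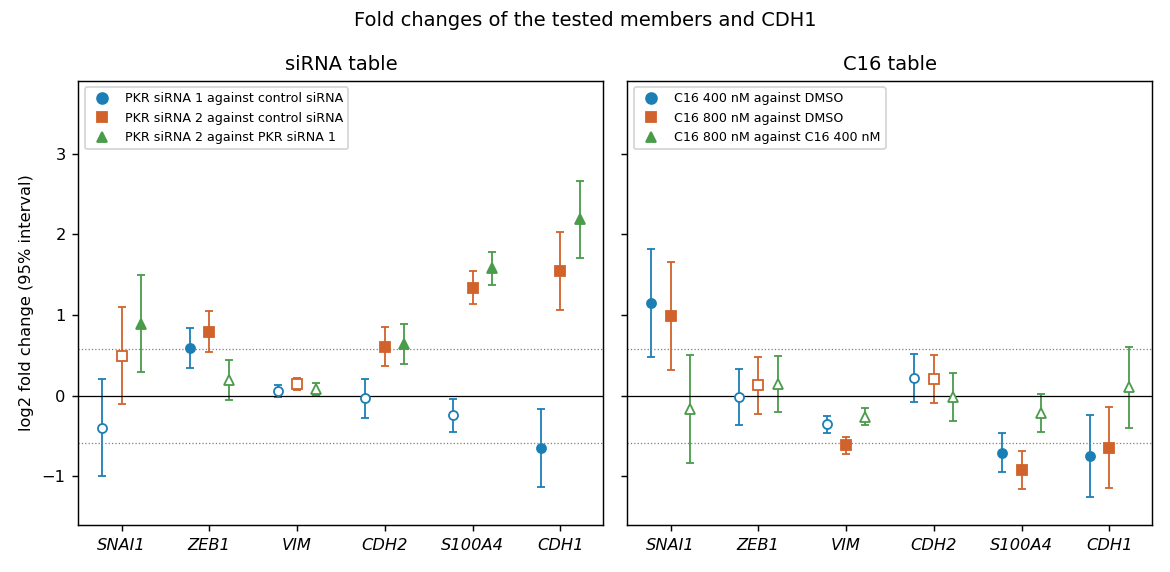
Log2 fold changes (vertical axis) with 95% confidence intervals of the 5 tested EMT genes and CDH1 in the 3 comparisons of the siRNA table (left) and of the C16 table (right). Filled symbols were called (limma, adjusted p under 0.05 and over 1.5-fold), open symbols were not, and dotted lines mark 1.5-fold. S100A4 lies at 1.34 with PKR siRNA 2 and at -0.71 and -0.92 with C16.

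CDH1 was read beside its repressors and beside CDH2. It had 17.5, 22.6 and 16.1 normalized counts in the controls, 14.4, 9.07 and 11.6 after PKR siRNA 1, and 61.7, 55.8 and 50.8 after PKR siRNA 2. The PKR siRNA 1 libraries lay below and the PKR siRNA 2 libraries above the controls. CDH1 fell by 0.64 on the log2 scale with PKR siRNA 1 (adjusted p = 0.0242) and rose by 1.54 with PKR siRNA 2 (adjusted p = 1.09e-07). ZEB1 rose with both, and a relation of CDH1 to ZEB1 was not tested. The fall of CDH1 was not called by edgeR or DESeq2, nor without control siRNA library 2 (-0.51) or PKR siRNA 1 library 2 (-0.49). It was also lost with a pseudocount of 5 (-0.51), without a filter and with only the compared groups fitted.

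With C16, CDH1 had 32.1, 24.8 and 35.8 normalized counts with DMSO, 18.1, 17.3 and 18.1 at 400 nM and 26.2, 13.4 and 20 at 800 nM. The 400 nM libraries lay below DMSO, and library 1 of 800 nM lay within the DMSO range. The log2 changes were -0.74 (adjusted p = 0.0218) and -0.64 (adjusted p = 0.0332). Both calls were lost under DESeq2 and without DMSO library 1 or library 3. The call at 400 nM was also lost without its library 2 (-0.72), and that at 800 nM without its library 2 (-0.40) or library 3 (-0.67). A pseudocount of 5 (-0.55) or no filter removed the 800 nM call as well.

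Per length of exon, the CDH2 level was 4.96, 4.07 and 5.34 times the CDH1 level in the control siRNA libraries. This ratio was 6.24, 8.55 and 7.93 for PKR siRNA 1 and 2.18, 2.27 and 2.85 for PKR siRNA 2, with no overlap between the 3 groups. In the C16 table it was 1.93, 3.04 and 1.98 with DMSO, 4.64, 4.54 and 4.45 at 400 nM and 4.04, 5.02 and 3.61 at 800 nM, so both doses lay above DMSO. N-cadherin RNA thus exceeded E-cadherin RNA in every library. The ratio was formed after the values were seen and was not tested.

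Epithelial genes other than CDH1 did not follow 1 direction across the treatments. Of 40 epithelial genes fixed as a list, 25 were tested in the siRNA table. With PKR siRNA 1, 16 were called down and 1 up (median log2 change -0.64, against -0.01 over all genes tested), led by SPINT1, a membrane inhibitor of serine proteases (-3.36), and the adhesion molecule EPCAM (-2.96). The 1 called up was lost without library 2 of either group. The same comparison called 12.6% of all genes down and 8.53% up. With PKR siRNA 2, 9 were called down and 4 up (median 0.10), with EPCAM (-3.14) and SPINT1 (-2.63) again down and keratin 19 (KRT19, 1.31) up beside CDH1. All genes tested gave 12.8% down and 10.8% up for this siRNA.

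Between the siRNAs, 13 epithelial genes were higher and 4 lower with PKR siRNA 2 (median 0.73), beside 16.4% and 15.3% of all genes tested. The summed level of the 6 epithelial markers had the same order over the groups as the means of S100A4, CDH2 and SNAI1: 5358 to 5451 normalized counts in the controls, 3052 to 3280 for PKR siRNA 1 and 9586 to 10230 for PKR siRNA 2. Its part in the changes of the EMT genes was not tested. The sum is carried by KRT8, KRT18 and KRT19, and with PKR siRNA 2 EPCAM (-3.14) and KRT7 (-1.86) went against it. The summed level of the 5 fibroblast markers, most of it COL1A1, was 84.2 to 117, 26.3 to 32.2 and 130 to 139 in the same order, and CD68 had 147 to 169, 206 to 273 and 194 to 204. The part of either was not tested.

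With C16, 23 epithelial genes were tested. At 400 nM 6 were called up and 4 down (median 0.17), and at 800 nM 5 up and 6 down (median -0.05). The 4 down at 400 nM became 2 without DMSO library 1 or library 3 or without 400 nM library 2. Claudin 1 (CLDN1) rose at both doses (1.67 and 1.62), while plakoglobin (JUP), a component of desmosomes and adherens junctions, fell (-1.23 and -2.32) and so did KRT19 (-0.91 and -1.49). Between the doses 4 were lower and 0 higher at 800 nM, beside 3.95% and 1.13% of all genes tested. Against DMSO, 7.08% of all genes were called up and 5.45% down at 400 nM, and 11.6% and 14.1% at 800 nM. The summed epithelial markers were 7171 to 7572 with DMSO, 6033 to 6544 at 400 nM and 5172 to 5685 at 800 nM, in the same order as VIM, and the fibroblast markers 149 to 184, 120 to 181 and 80.2 to 117. CD68, the only immune marker with reads, had 51.0 to 57.3 with DMSO, 141 to 171 at 400 nM and 104 to 123 at 800 nM, the order of SNAI1. The part of these markers in the changes of the EMT genes was not tested.

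Of 52 other mesenchymal genes listed in the files, 28 were tested in the siRNA table. More were called down than up with each siRNA, as were more of all genes tested (12.6% against 8.53% with PKR siRNA 1, 12.8% against 10.8% with the other). After PKR siRNA 1, 9 were called down and 1 up (median -0.36), led by the matrix genes SPARC (-1.99) and COL1A1 (-1.86), while the ectonucleotidase gene NT5E (CD73) rose (0.78). The 1 called up became 3 without library 1 of either group and 2 without library 2 of either. With PKR siRNA 2, 13 were called down and 4 up (median -0.41). NT5E (-2.03) and the myosin light chain gene MYL9 (-1.79) fell, and IGFBP3 (1.41) and COL6A1 (1.39) rose.

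Directly compared, 9 of these genes were higher and 7 lower with PKR siRNA 2 (median -0.02), beside 16.4% and 15.3% of all genes tested. SPARC (2.24) and COL1A1 (2.08) were higher, as S100A4 was, and NT5E (-2.82) was lower.

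Among the other mesenchymal genes, 27 were tested in the C16 arm. At 400 nM 6 were called up and 1 down (median 0.06), and at 800 nM 3 up and 8 down (median -0.16). The 3 up became 5 without DMSO library 2, and the 1 down at 400 nM became 2 in the fit without 800 nM library 1. The matricellular gene CTGF rose at both doses (1.28 and 1.20), whereas SPARC fell (-1.87 and -2.63). Between the doses 0 were higher and 4 lower at 800 nM (median -0.34), among them COL1A1 (-0.88). Over all genes tested, 1.13% were higher and 3.95% lower there. Against DMSO, 7.08% were called up and 5.45% down at 400 nM, and 11.6% and 14.1% at 800 nM.

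**Figure D5:**
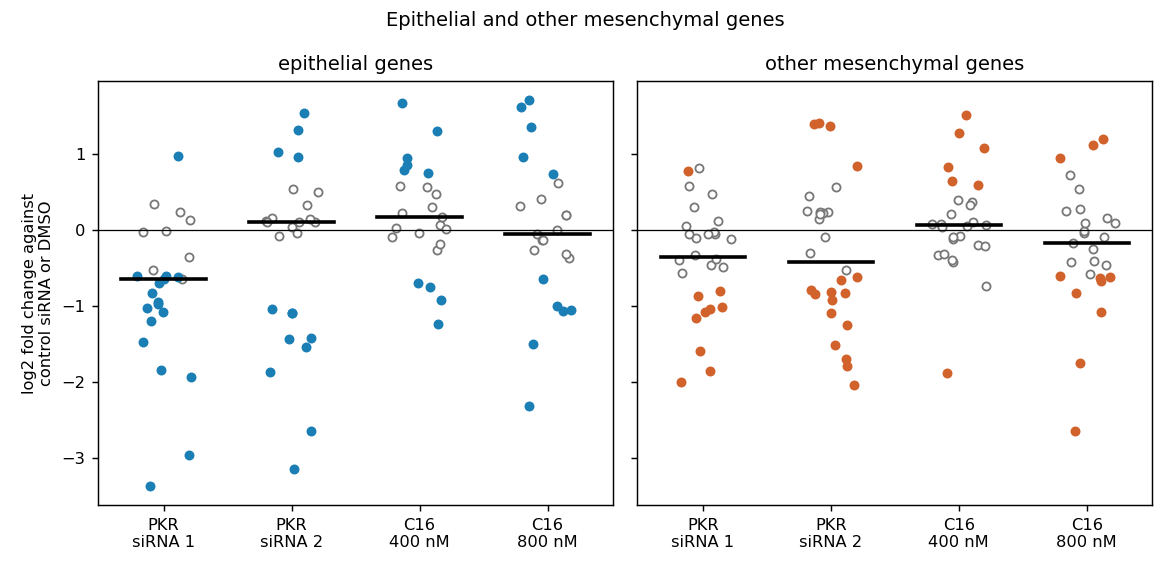
Log2 fold changes against control siRNA or DMSO (vertical axis) of the tested epithelial genes (left) and other mesenchymal genes (right). Each point is 1 gene, filled where called, and the bar is the median of the list. The epithelial median is -0.64 for the first PKR siRNA and 0.10 for the other. The mesenchymal median lies below 0 with both siRNAs and at 800 nM C16.

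Of 16 other EMT transcription factors, 9 could be tested for the siRNAs and 7 for C16. Transfection with PKR siRNA 1 left 3 of them called down and 0 up, among them FOXC2 (-1.14) and SOX4 (-1.03). Over all genes tested, 12.6% were called down there and 8.53% up. With PKR siRNA 2, 4 were called down, led by the chromatin protein gene HMGA2 (-1.56), and FOXC1 (0.95) was called up. Here the calls took in 12.8% of all genes downwards and 10.8% upwards. The siRNAs differed in 6 of the 9 factors, with SOX4 (1.02) and FOXC1 (0.91) higher and FOXQ1 (-1.51), RUNX2 (-1.35) and others lower with PKR siRNA 2. Of all genes tested, 16.4% were higher and 15.3% lower in this direct comparison.

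SOX4 was also called down at 400 nM (-0.76) and 800 nM C16 (-0.98), and FOXC1 was called up at 800 nM (0.78). Between the doses only FOXQ1 (-0.79) was called. The shares of all genes called up and down were 7.08% and 5.45% at 400 nM and 11.6% and 14.1% at 800 nM. Between the doses they were 1.13% and 3.95%.

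TGF-beta signalling is a known inducer of EMT factors, and 16 genes of the pathway were tested in the siRNA table. Of these, 4 were called down and 0 up after PKR siRNA 1, led by the co-receptor TGFBR3 (-1.26) and LTBP1 (-0.88), which holds latent TGF-beta in the matrix. Among all genes tested, the share called down was 12.6% and the share called up 8.53%. For PKR siRNA 2, 3 were called up and 3 down: TGFBR3 rose (1.20) with the inhibitory SMAD7 (0.81), while LTBP1 (-1.32) and the type I receptor TGFBR1 (-0.89) fell. For that siRNA the shares of all genes were 10.8% up and 12.8% down. Between the siRNAs 4 were higher and 2 lower with PKR siRNA 2, beside 16.4% and 15.3% of all genes tested.

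In the C16 arm, 15 of the pathway genes were tested. At 400 nM 2 were called up and 2 down and at 800 nM 1 up and 4 down, with LTBP1 up at both doses (1.32 and 1.44) and SKIL, a corepressor of SMAD proteins, down (-0.71 and -0.88). Between the doses 0 were called, and 3 had an adjusted p under 0.05 without reaching 1.5-fold. The shares of all genes called up and down were 7.08% and 5.45% at 400 nM and 11.6% and 14.1% at 800 nM. Between the doses they were 1.13% and 3.95%. The 5 miR-200 family rows in the files (MIR200A, MIR200B, MIR200C, MIR141 and MIR429) held 0 reads in every library, as did MIR205 and its host gene MIR205HG. Short RNAs are not what poly(A)-selected libraries measure, so the mature microRNAs were not assessed.

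RefSeq promoter windows, 250 bases before to 50 bases after the start, were given for 6 of the 9 genes. The E-box was searched as CAGGTG or its reverse complement CACCTG, and 2 of these 6 windows, those of ZEB1 and S100A4 shown above, held it, where 20.6% of all 27305 windows did. With fewer than 80% of the members matched, a comparison of these shares is void. A match is a string of letters and not a site of binding.

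The genes whose pattern was most like that of each EMT gene were taken by the mean of the Pearson correlations over the 9 libraries of each table, among 9821 genes tested in both. The libraries of a table share 3 groups, so these values mostly describe differences between groups, and they carry no test. Those nearest to VIM were the ribosomal protein genes RPL10 (mean r 0.97) and RPS12 (0.95) and the BMP target ID1 (0.94). Those nearest to S100A4 were FBXO17 (0.96), PDE5A (0.96) and NANOS1 (0.96).

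Those nearest to ZEB1 were BRPF3 (0.87), RNGTT (0.84) and CYB5RL (0.83), to CDH2 SKI (0.86), MTRR (0.86) and TOLLIP (0.85), and to SNAI1 B4GALT1 (0.84), TNPO1 (0.84) and NCOA7 (0.83). Among the EMT genes themselves, CDH2 and S100A4 moved together over the siRNA libraries (r 0.94) but not over the C16 libraries (r -0.45). VIM and S100A4 did so in both tables (0.75 and 0.87), and ZEB1 and VIM in the siRNA table alone (0.84 against -0.25). Each is a description over 9 libraries.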

How the data were processed

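RNA was extracted with TRIzol and sequenced as poly(A)-selected, directional libraries, 3 for each of 6 groups. Alignment by the authors used TopHat and hg38, counting used featureCounts, and each table was normalized by TMM with TCC. What they deposited is therefore a normalized signal for each gene: its reads over a scaling factor of the library. The annotation, the strand setting and tool versions are not given in the sources used here, so genes overlapping another gene are uncertain. All values were whole multiples of 1 read (tolerance 0.01), which gave the reads back. In library 1 of PKR siRNA 2 and of 800 nM C16 that step is near 1 (0.9947 and 1.0087). For values of a few reads, multiples are therefore hard to tell from rounding there. At high counts they separate: VIM in library 1 of PKR siRNA 2 had 5228 normalized counts for 5256 reads.

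Tests were two-sided with limma 3.58.1 in R 4.3.3 (lmFit, eBayes with a trend) on log2(normalized count + 1), for genes averaging 10 or more normalized counts. The fit and this mean took in the 9 libraries of the table, so a gene under 10 in 1 group could pass through the others. Fold changes on this scale understate those of low genes. Exact permutation tests of single genes were added, which cannot go below 0.1 for 3 against 3 libraries. As alternatives, edgeR 4.0.16 (quasi-likelihood) and DESeq2 1.42.0 were run on the recovered reads, the pseudocount was set to 0.5 or 5, the minimum mean to 30 or to none, the scaling to median of ratios or library totals, the fit was limited to the compared groups or given a replicate block, and single libraries were left out. They were applied to CDH1 and to counts over the lists after the data were seen. The test was also run on simulated data with 200 changed genes and the same dispersion for every gene. That setting is simpler than these libraries, so it does not show how the test performs here. Replicates differed by more than sampling noise and none were merged.

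The members and the gene lists were chosen with earlier results of these data known. The 9 members and CDH1 were always named. Of each list, in each comparison, up to 2 called genes with the largest rise and 2 with the largest fall could be named. Promoter windows are from RefSeq (GRCh38.p14).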

Additional observations from a re-analysis of the deposited data

Results flagged for a closer look

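For 3 genes the effects of PKR siRNA 1 and PKR siRNA 2 against control siRNA had opposite signs and the siRNAs differed in the direct test by limma with Benjamini-Hochberg adjustment. S100A4 was higher with PKR siRNA 2 by 1.58 on the log2 scale (adjusted p = 3.02e-23), SNAI1 by 0.89 (adjusted p = 0.00884) and CDH2 by 0.64 (adjusted p = 6.81e-06), in 3 of 3 libraries each. The CDH2 effect with PKR siRNA 1 was near 0 (-0.03, interval -0.28 to 0.21), and its sign turned under total count scaling (0.0002) and without PKR siRNA 1 library 2 (0.0449). The SNAI1 call was lost without PKR siRNA 1 library 2 (adjusted p = 0.058) or PKR siRNA 2 library 3 (0.0509). Of the effects against control siRNA, those of S100A4 and CDH2 with PKR siRNA 2 were called, and those of SNAI1 with either siRNA, and of S100A4 and CDH2 with PKR siRNA 1, were not. EIF2AK2 did not differ past the test between the siRNAs (11.1 and 8.65 normalized counts, log2 -0.31, adjusted p = 0.282).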

How the results depend on the processing

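Of 30 log2 changes of the 5 tested members, 12 were called. Under 19 alternatives per comparison none of the 12 changed sign, 4 kept their call throughout (ZEB1 and S100A4 with PKR siRNA 2 against control siRNA, S100A4 between the siRNAs and at 800 nM C16) and 8 lost it under at least 1 alternative. None of the 18 others became called.

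The number of members called with PKR siRNA 1 (1) was 0 with a pseudocount of 5 (ZEB1 0.57), and 2 without a filter, where SNAI2 was added from 9 reads. At 400 nM C16 (2) it was 1 with a minimum mean of 30, which removes SNAI1 by its construction, and 1 with DESeq2. With 1 library left out, it ranged from 0 to 1 with PKR siRNA 1, from 1 to 3 between the siRNAs, from 1 to 2 at 400 nM and from 1 to 3 at 800 nM. With a pseudocount of 5 the CDH2 change with PKR siRNA 2 was just under the size threshold (0.58).

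Changes that were not called and changed sign were CDH2 with PKR siRNA 1 (0.0002 under total count scaling, -0.076 to 0.0449 with a library left out) and CDH2 between the C16 doses (0.0217 under total count scaling, 0.0353 with edgeR, 0.033 with DESeq2, -0.21 to 0.11 with a library left out). With a library left out, ZEB1 at 400 nM ranged from -0.13 to 0.15, and between the doses SNAI1 from -0.40 to 0.057, ZEB1 from -0.025 to 0.23 and CDH1 from -0.11 to 0.35. The cause was not tested.

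Over all genes, a minimum mean of 30 took the counts of called genes from 1248 to 769 at 400 nM, from 2561 to 1618 at 800 nM and from 507 to 313 between the doses, with fewer genes tested, and DESeq2 gave 188 between the doses. The same minimum took the epithelial genes called up from 6 to 3 and down from 4 to 2 at 400 nM, from 5 to 2 and from 6 to 3 at 800 nM, and from 4 to 2 and from 9 to 5 with PKR siRNA 2. It took those called up with PKR siRNA 1 from 1 to 0 and those lower from 4 to 2 both between the siRNAs and between the doses. DESeq2 gave 2 epithelial genes down (4) at 400 nM and between the doses. Other mesenchymal genes called up with PKR siRNA 1 (1) were 2 or 3 under 6 settings, among them 3 under total count scaling and with edgeR. Without a filter 8 (4) were called up with PKR siRNA 2, 10 (6) at 400 nM and 6 (3) at 800 nM, and those called down at 400 nM (1) were 2 with a pseudocount of 5, with only the compared groups fitted and with edgeR. Same-numbered libraries shared only a number (correlations of their deviations -0.05 to 0.03). The fit with the replicate block called the same number of members as the fit without it (1, 3, 3, 2, 3 and 0 in the order of the comparisons). Depth limits SNAI1 and CDH1, and SNAI2, TWIST1, ZEB2 and FN1 cannot be compared at this depth.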
